A study of Mus musculus with 16 samples.

Results

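Mature memory B cells were compared with pre-memory B cells by RNA sequencing of 5 of the study's 16 libraries: 3 of Fraction 7, the gate labelled mature memory, and 2 of Fraction 6, the gate labelled pre-memory. Both gates held donor B cells of mouse spleen, 10 days after NP-CGG in alum was injected into CD45.1+ wild-type recipients. The donor cells were C57BL/6 B cells heterozygous for a Bcl6-YFP reporter and for the B1-8hi knock-in, an antibody heavy chain gene that gives affinity for the hapten NP. All were CD45.2+, NP-binding, CD138-negative, IgG1+, CD38+ and GL7-negative, and both gates were low for Bcl6-YFP. The gates differed in surface Efnb1, which was high in Fraction 6 and low in Fraction 7. Levels in Fraction 5 (n = 3, labelled pro-memory, Bcl6-YFP high and Efnb1 high) and in the light zone gate LZ (n = 3, CD38-negative, CD86-high, CXCR4-low) are given beside these where they help to place a gene. The order from Fraction 5 to Fraction 6 to Fraction 7 is assumed from the gate labels, and descent between the gates was not tested. The animals were 9 recipients whose spleens were pooled, and each library was made from 10000 to 20000 cells. The antibody heavy chain is a knock-in, the sorted cells carried IgG1 and a single day was sampled, so the gates stand for early splenic memory of 1 specificity.

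Memory B cells arise in part from the germinal centre, the site in the follicle where activated B cells divide, mutate their antibody genes and compete for help from T cells. Bcl6 is the transcription factor that holds cells in the germinal centre state, and cells that leave lose it and regain receptors for recirculation. Efnb1, an ephrin ligand, is carried by germinal centre B cells. A memory cell is small, divides little, and carries receptors that let it recirculate and answer antigen quickly. How far a cell that has already lowered Bcl6 still differs from a mature memory cell is the question that the comparison addresses.

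The deposited values are FPKM, which scale fragment numbers by gene length and library size. In the 5 libraries they summed to 416741 to 470846, with 10379 to 10552 genes at 1 FPKM or more. The libraries' relative depths, judged by the size of the smallest steps between low values, were 0.92 to 1.07 relative to Fraction 6 library 1, and the number of reads behind these values is unknown. A log2 change below is Fraction 7 minus Fraction 6 in log2(FPKM + 1), a scale on which low genes show less than their full change, and a number alone in brackets gives this log2 change for the gene before it. Tests used limma, with Benjamini-Hochberg adjustment over 11266 genes, and a gene is called when its adjusted p is under 0.05. Nothing in the labels tells whether the replicates of 1 gate stem from different mice, so the p-values speak only to how far these libraries vary, and that variation may be technical. In Fraction 7, library 1 stood apart from libraries 2 and 3 in genes of antibody-secreting cells. These genes, the 5 markers and the count of calls are therefore also given without libraries 2 and 3. In sorted bulk cells, fewer cells with a transcript and less transcript per cell cannot be told apart.

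The transcripts of the gate genes checked the labels and are no findings. Efnb1 was at 32.4 and 27.5 FPKM in Fraction 6 and 2.14, 2.37 and 1.93 in Fraction 7 (log2 change -3.29 ± 0.11 SE, adjusted p = 6.07e-10). Bcl6 stood at 75.3 and 70.2 FPKM in Fraction 6 and 20.5, 18.4 and 15 in Fraction 7, against 155 to 194 in the libraries of LZ and Fraction 5. Both gates were sorted as Bcl6-YFP low, yet every Fraction 7 library held less Bcl6 mRNA than either Fraction 6 library (log2 change -1.97 ± 0.11 SE, adjusted p = 8.47e-08). Cd38 was at 75.3 and 76.4 FPKM in Fraction 6 and 77.0, 76.7 and 71.3 in Fraction 7, with overlapping groups and no call (log2 change -0.02, adjusted p = 0.937, and 0.06 with median-ratio scaling). Ptprc, which encodes CD45, was at 328 and 347 FPKM in Fraction 6 and 262, 279.6 and 234 in Fraction 7 (log2 change -0.39 ± 0.08 SE, adjusted p = 0.00483). The call for Ptprc was lost without Fraction 6 library 2 (adjusted p = 0.0591). All 10 genes listed as B cell defining were at 1 FPKM or more in all 5 libraries, among them Pax5 at 214 and 216 FPKM in Fraction 6 and 174, 151 and 146 in Fraction 7. Of these 10, 5 were nonetheless lower in Fraction 7 and 1 higher, against 13.9% and 7.37% of all genes. The lower ones were Pax5 (log2 change -0.45, adjusted p = 0.00179), Cd22, Blnk, Ms4a1 and Cd79b, and Ly6d was the higher one. In 3 of the 5 the call held whichever library was left out.

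The markers given for mature memory matched the label. They were given for this comparison with earlier results of these data known, so the match is no independent test of the label. Ahnak, a very large scaffold protein below the plasma membrane, was at 1.82 and 2.87 FPKM in Fraction 6 and 73.9, 44.0 and 49.8 in Fraction 7, with a mean 23.9 times that of Fraction 6 (log2 change 4.07 ± 0.21 SE, adjusted p = 5.97e-08). Bhlhe41, a transcriptional repressor that binds E-boxes, was at 3.63 and 6.08 FPKM in Fraction 6 and 78.2, 60.7 and 74.9 in Fraction 7 (log2 change 3.65 ± 0.29 SE, adjusted p = 1.59e-06). Zbtb32, a zinc finger repressor of the BTB family, was at 3.90 and 7.48 FPKM in Fraction 6 and 49.3, 32.5 and 53.5 in Fraction 7 (log2 change 2.81 ± 0.28 SE, adjusted p = 1.00e-05). In all 3 the lowest Fraction 7 library was several times the highest Fraction 6 library. Cxcr3, the receptor for the interferon-induced chemokines Cxcl9 and Cxcl10, stood at 4.18 and 5.81 FPKM in Fraction 6 and 39.8, 30.6 and 35.6 in Fraction 7 (log2 change 2.60 ± 0.21 SE, adjusted p = 1.61e-06). S1pr2, the receptor that holds B cells in the germinal centre, went the other way, from 34.7 and 35.6 FPKM in Fraction 6 to 4.10, 5.09 and 3.62 in Fraction 7 (log2 change -2.79 ± 0.11 SE, adjusted p = 1.55e-09). In LZ and Fraction 5 S1pr2 ranged from 129 to 153 FPKM, so Fraction 6 lay between the germinal centre level and that of Fraction 7. Ahnak ranged from 0.241 to 0.569 and Cxcr3 from 0.349 to 3.11 in the same 6 libraries.

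**Figure D1:**
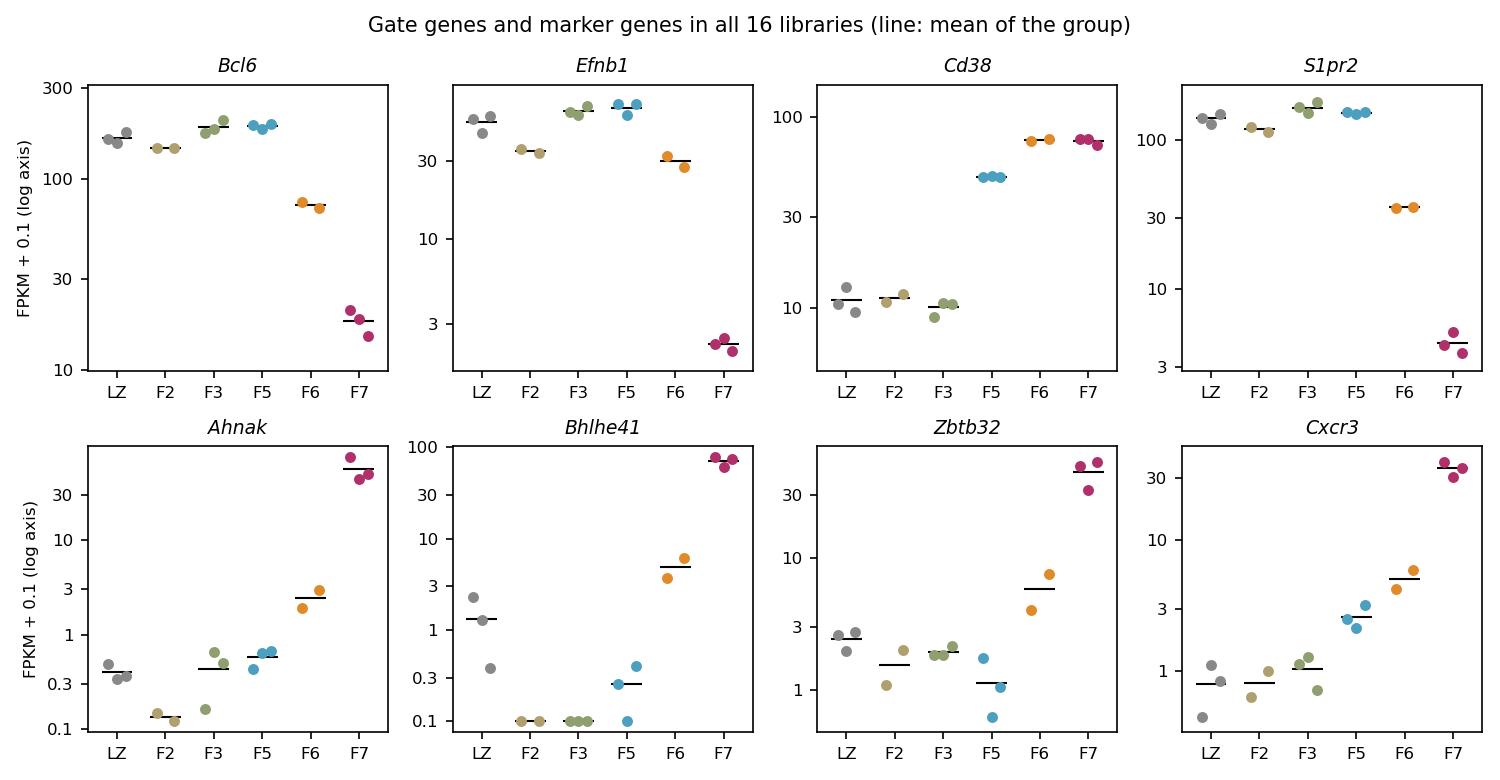
Levels of 3 gate genes (Bcl6, Efnb1, Cd38) and the 5 marker genes in each of the 16 libraries, as FPKM + 0.1 on a log axis, with a line at the mean of each group. Fraction 6 (F6) lies between Fraction 5 (F5) and Fraction 7 (F7) for each gene shown but Cd38, where F6 and F7 overlap.

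Of 11266 genes tested, 2393 were called (21.2%), 830 of them higher in Fraction 7 (7.37% of the genes tested) and 1563 lower (13.9%). Over 2-fold changes on the log2 scale numbered 229 higher and 206 lower, so the larger share of lower calls came from smaller changes. The median over all genes was -0.05. The counts of each gene list below are to be read beside these shares, 7.37% higher and 13.9% lower. The split depends on the scaling: with median-ratio scaling 1165 genes were higher and 1316 lower (47.0% of the calls higher, against 34.7%). With 2 libraries in Fraction 6 the count leans on both of them: it was 1561 without library 1 (475 higher) and 1334 without library 2 (495 higher, 839 lower). Without libraries 2 and 3 of Fraction 7 it was 1589, of which 737 were higher and 852 lower. In 1027 genes, 352 higher and 675 lower, the call held whichever of the 5 libraries was left out. The groups did not overlap in 5222 genes (46.4% of those tested), which is therefore a weak mark of a change by itself.

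**Figure D2:**
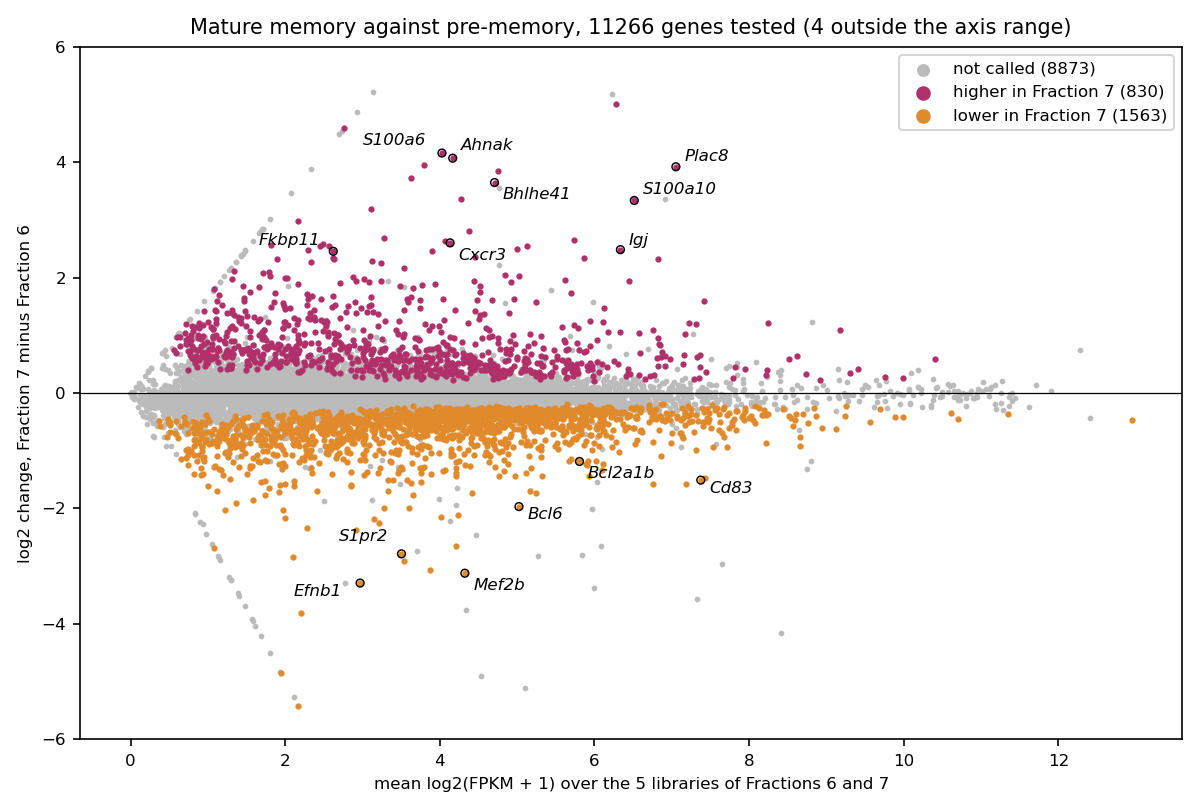
Log2 change between Fraction 7 and Fraction 6 against the mean level over the 5 libraries, 1 point per gene tested, with called genes in colour. The circled genes are named in the text, and higher calls reach larger changes (Ahnak 4.07, Plac8 3.92) among genes of middle and high level.

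The largest rises included calcium-binding and scaffold proteins, surface receptors and a PI3K subunit. S100a6, a small calcium-binding protein, was at 0.734 and 3.81 FPKM in Fraction 6 and 70.9, 33.9 and 54.1 in Fraction 7 (log2 change 4.16 ± 0.35 SE, adjusted p = 2.81e-06). S100a10, which pairs with annexin A2 at the membrane and binds Ahnak, was at 13.4 and 35.1 FPKM in Fraction 6 and 275, 171 and 258 in Fraction 7 (log2 change 3.34 ± 0.64 SE, adjusted p = 0.00216). Pdlim1, a PDZ and LIM adaptor of actin fibres (3.36), Sspn, a membrane protein of the dystrophin complex (3.74), and Ckap4, a protein of endoplasmic reticulum sheets (2.63), rose with them. Plac8, a cysteine-rich lymphocyte protein, reached 430.2, 329.6 and 428 FPKM in Fraction 7 from 13.6 and 45.3 in Fraction 6 (log2 change 3.92 ± 0.43 SE, adjusted p = 2.24e-05). The 2 Fraction 6 libraries were apart in Plac8 and S100a10, with library 2 the higher in both. Ly6c2, a GPI-anchored Ly6 protein, was at 3.17 and 0.726 FPKM in Fraction 6 and 16.1, 59.8 and 67.9 in Fraction 7 (log2 change 3.95), uneven among the Fraction 7 libraries. Gpr34, a receptor for lysophosphatidylserine (2.70), and Tmem154, a small membrane protein (3.19), also rose. Pik3r6, a regulatory subunit of the G protein-coupled PI3K gamma complex, was close to absent in Fraction 6 at 0.272 and 0.326 FPKM and stood at 8.90, 8.24 and 10.7 in Fraction 7 (log2 change 2.98 ± 0.13 SE, adjusted p = 8.82e-09). Pml, the organiser of PML nuclear bodies, was at 14.8 and 18.6 FPKM in Fraction 6 and 124, 98.2 and 109 in Fraction 7 (2.66).

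The largest falls held 4 short RNA or ribosomal protein genes at the top, Snord91a, Mir1940, Mir20a and Rpl26, followed by Efnb1 of the gate and genes of the germinal centre programme. Mef2b, a transcription factor that activates Bcl6, went from 76.8 and 68.3 FPKM in Fraction 6 to 7.43, 11.7 and 4.58 in Fraction 7 (log2 change -3.12 ± 0.24 SE, adjusted p = 1.30e-06). Mybl1, a Myb family factor of germinal centre B cells, went from 52.9 and 50.1 to 5.28, 7.19 and 3.74 FPKM (log2 change -3.07 ± 0.16 SE, adjusted p = 5.18e-08). Gm600, also named Nuggc, a nuclear GTPase of germinal centre B cells, stood at 39.2 and 36.6 FPKM in Fraction 6 and 3.72, 4.48 and 4.38 in Fraction 7 (log2 change -2.91 ± 0.09 SE, adjusted p = 1.76e-10). These 3 genes, like Efnb1 and S1pr2, had Fraction 6 levels below those of LZ and Fraction 5, at 165 to 239 FPKM for Mef2b and 89.5 to 126 for Mybl1 in those 6 libraries. Basp1, a membrane-bound signalling protein (-2.65), Rassf6, a Ras association domain protein (-2.38), Rgs13, a brake on chemokine receptors in the germinal centre (-2.25), Crisp3, a secreted cysteine-rich protein (-2.34), and Ltk, a receptor tyrosine kinase (-2.19), fell too. Ltk was alike in Fractions 5 and 6, at 23.1, 18.8 and 28.4 FPKM in Fraction 5 and 20.3 and 22.0 in Fraction 6. It stood at 3.36, 4.52 and 3.74 FPKM in Fraction 7. The rule for the largest falls also returned very short RNA genes, whose FPKM jump from 0 to high values. Snord91a was at 450.4 and 219 FPKM in Fraction 6 and listed at 0 in all 3 Fraction 7 libraries, and Mir1940 at 41.9 and 41.7 and Mir20a at 20.4 and 38 in Fraction 6 were likewise listed at 0 in Fraction 7. Snord91a and Mir20a were at 0 in LZ and Fraction 5 as well, and Mir1940 reached at most 9.74e-07 FPKM there. Scarna13, at 5.66 and 5.19 FPKM in Fraction 6 and 0 in all 3 libraries of Fraction 7, and the ribosomal protein gene Rpl26, at 26.8 and 17.1 FPKM in Fraction 6 and 0.000469, 3.10 and 0.000474 in Fraction 7, completed the 15 falls. Rpl26 has processed copies in the genome with which it can share reads, so its value is uncertain.

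Most genes listed for germinal centre identity were lower in Fraction 7. Of 29 members tested, 25 were lower in Fraction 7 (13.9% of all genes were) and 0 higher, with a median log2 change of -0.90 against -0.05 over all genes. Efnb1 and Bcl6 are members and belong to the gates. Gcet2, also named Gcsam, a signalling adaptor of germinal centre B cells (-1.91), Fas, the death receptor (-1.39), and Ccnd3, the cyclin of germinal centre division (-1.30), fell too. Il21r, the receptor for the T cell cytokine interleukin 21, was at 117 and 104 FPKM in Fraction 6 and 56.3, 63.1 and 51.8 in Fraction 7 (log2 change -0.94 ± 0.09 SE, adjusted p = 6.11e-06), and Plxnb2, a plexin of germinal centre B cells, at 24.2 and 24.5 FPKM in Fraction 6 and 15.5, 14.9 and 12.8 in Fraction 7 (-0.72). Lmo2, Id3 and Tnfrsf21 were among the members without a call. Gcet2, Ccnd3 and these 3 were chosen after their values were seen.

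**Figure D3:**
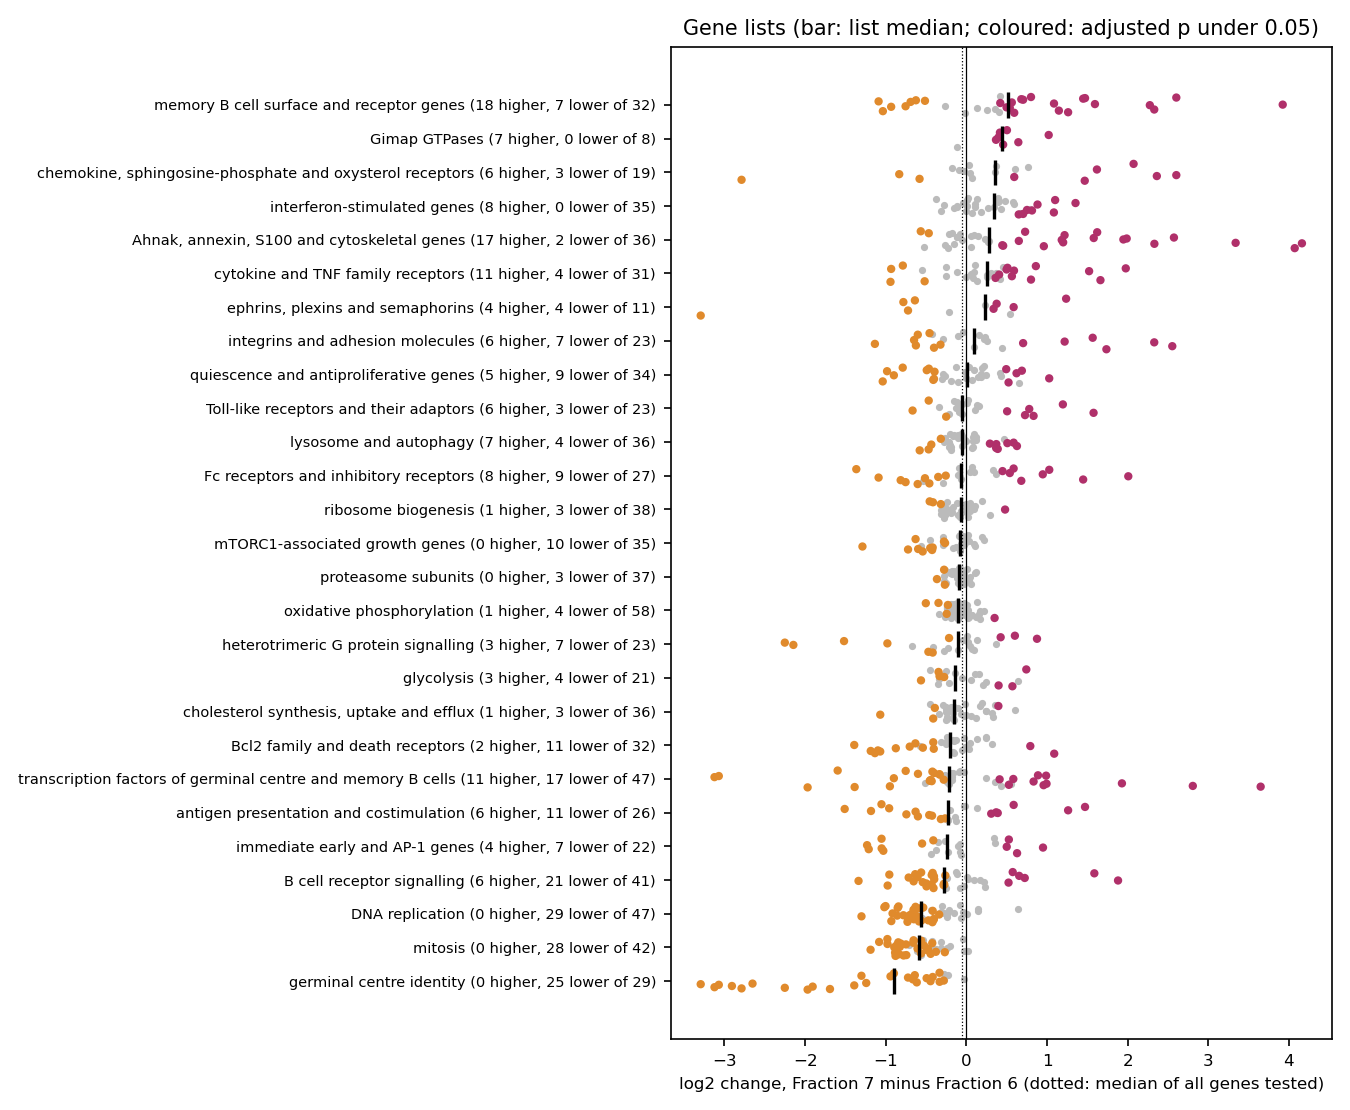
Log2 change of every tested member of the 27 pathway lists, 1 row per list ordered by its median (black bar), with called genes in colour and the counts of higher and lower calls beside each name. Germinal centre identity, mitosis and DNA replication have the lowest medians, and memory B cell surface genes the highest.

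Transcription factors moved in both directions. Of 47 listed factors of germinal centre and memory B cells, 11 were higher and 17 lower in Fraction 7 (7.37% and 13.9% of all genes, list median -0.22). Beside Mef2b, Mybl1 and Bcl6, the HMG box factor Tox was at 7.11 and 5.84 FPKM in Fraction 6 and 1.67, 1.71 and 1.07 in Fraction 7 (log2 change -1.60 ± 0.14 SE, adjusted p = 5.05e-06). Bach2, a repressor that restrains plasma cell differentiation and favours memory, was at 30.9 and 32.8 FPKM in Fraction 6 and 13.2, 12.9 and 9.05 in Fraction 7 (log2 change -1.39 ± 0.13 SE, adjusted p = 6.57e-06), with every Fraction 7 library below either Fraction 6 library. Against these stood Bhlhe41 and Zbtb32. Bhlhe40, the close relative of Bhlhe41, did not follow it: it was at 26.8 and 27.4 FPKM in Fraction 6 and 13.2, 17.1 and 11 in Fraction 7 (log2 change -0.95 ± 0.17 SE, adjusted p = 0.00106). In Fraction 5, Bhlhe40 was at 5.95, 7.4 and 4.84 FPKM and Bhlhe41 at 0.159, 0 and 0.304, so of these 3 gates Bhlhe40 was highest in Fraction 6 and Bhlhe41 in Fraction 7. Irf4, which with Prdm1 drives plasma cells and is needed for their start, was at 10.2 and 12.0 FPKM in Fraction 6 and 19.5, 20.6 and 21.4 in Fraction 7 (log2 change 0.83 ± 0.12 SE, adjusted p = 0.000195).

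The promoters of the repressors with the largest rises are shown because the E-box CACGTG (its own reverse complement, so 1 search covers both strands) is the site that Bhlhe factors bind. Sequences are from RefSeq, build GRCm38.p6, 250 bases before to 50 after the annotated start, on the minus strand, with the E-box in capitals. Bhlhe41 lies at chr6:145865371-145865670 and Zbtb32 at chr7:30598860-30599159 and, for an alternative start, chr7:30592893-30593192.
Bhlhe41: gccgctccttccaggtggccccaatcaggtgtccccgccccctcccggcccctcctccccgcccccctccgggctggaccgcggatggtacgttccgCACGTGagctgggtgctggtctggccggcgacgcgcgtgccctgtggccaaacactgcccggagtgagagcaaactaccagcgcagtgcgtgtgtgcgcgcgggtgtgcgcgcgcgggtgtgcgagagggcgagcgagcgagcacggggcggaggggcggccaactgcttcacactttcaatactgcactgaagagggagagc
Zbtb32, start upstream: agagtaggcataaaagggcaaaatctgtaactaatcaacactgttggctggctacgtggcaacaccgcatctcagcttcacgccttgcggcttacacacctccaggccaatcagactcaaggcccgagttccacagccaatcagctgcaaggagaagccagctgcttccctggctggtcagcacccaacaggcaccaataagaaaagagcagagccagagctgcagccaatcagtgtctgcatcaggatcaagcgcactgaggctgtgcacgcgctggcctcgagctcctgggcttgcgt
Zbtb32, alternative start: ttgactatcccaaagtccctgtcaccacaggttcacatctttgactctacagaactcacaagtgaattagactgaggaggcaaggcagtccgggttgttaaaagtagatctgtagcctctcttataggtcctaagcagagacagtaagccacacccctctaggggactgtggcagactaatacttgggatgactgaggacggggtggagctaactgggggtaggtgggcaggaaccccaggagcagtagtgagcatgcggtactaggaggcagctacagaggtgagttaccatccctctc
The Bhlhe41 window holds 1 E-box, which begins 153 bases before the start, and neither Zbtb32 window holds any. Of 32851 promoter windows in the table, 2349 (7.15%) hold the same letters. A match is a description of the sequence and says nothing of binding.

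Surface receptors that mark memory and recirculation were more often higher than lower. Of 32 memory surface and receptor genes tested, 18 were higher and 7 lower in Fraction 7 (7.37% and 13.9% of all genes), with a median of 0.52. Entpd1, or CD39, which degrades extracellular ATP, was at 0.775 and 1.16 FPKM in Fraction 6 and 8.87, 8.00 and 8.59 in Fraction 7 (log2 change 2.28 ± 0.14 SE, adjusted p = 2.39e-07). Its partner Nt5e, or CD73, which turns AMP into adenosine and is used as a memory marker, moved the other way, from 9.08 and 8.80 to 3.45, 4.32 and 3.81 FPKM (log2 change -1.04 ± 0.11 SE, adjusted p = 2.24e-05). Tnfrsf13c, the receptor for the survival factor BAFF, was at 298 and 318 FPKM in Fraction 6 and 164, 173 and 147 in Fraction 7 (log2 change -0.93 ± 0.10 SE, adjusted p = 1.53e-05). Of the memory subset markers, Cd80 rose (1.26) from 2.03 and 2.51 to 8.06, 6.21 and 6.32 FPKM, and Pdcd1lg2, which encodes PD-L2, was at 11.6 and 11 FPKM in Fraction 6 and 19.8, 14 and 12.5 in Fraction 7 and was not called (adjusted p = 0.0907).

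Receptors that guide migration moved both ways. Of 19 chemokine, sphingosine-phosphate and oxysterol receptors tested, 6 were higher and 3 lower in Fraction 7 (7.37% and 13.9% of all genes, list median 0.35). The share of lower receptors was thus near that of all genes. Ccr7, the receptor for the T zone chemokines Ccl19 and Ccl21, was at 6.78 and 7.71 FPKM in Fraction 6 and 54.6, 32.9 and 39.2 in Fraction 7 (log2 change 2.36 ± 0.23 SE, adjusted p = 1.04e-05). Ccr1, a receptor for inflammatory chemokines, was at 0.216 and 0.573 FPKM in Fraction 6 and 4.54, 4.5 and 5.49 in Fraction 7 (log2 change 2.07 ± 0.14 SE, adjusted p = 6.25e-07), and Gpr132, a receptor for lipids, at 9.24 and 11.6 FPKM in Fraction 6 and 35.0, 30.2 and 36.8 in Fraction 7 (1.62). The sphingosine-phosphate receptors parted. S1pr1, which draws lymphocytes out of tissue, was at 32.5 and 42.1 FPKM in Fraction 6 and 119, 98.1 and 96.7 in Fraction 7 (log2 change 1.47 ± 0.19 SE, adjusted p = 0.000112), whereas S1pr3, a receptor of the marginal zone, was at 34.5 and 36.1 FPKM in Fraction 6 and 20.6, 26.5 and 23.1 in Fraction 7 (log2 change -0.58 ± 0.12 SE, adjusted p = 0.00349). In Fraction 5 S1pr1 was at 4.08, 3.10 and 5.32 FPKM, so on the log2 scale most of its rise lay before Fraction 6, while S1pr2 and S1pr3 were at 153, 148 and 153 and at 37.4, 33.1 and 35.4 FPKM there. Cxcr5, the follicle homing receptor, was at 135 and 128 FPKM in Fraction 6 and 156, 128 and 123 in Fraction 7 and was not called (adjusted p = 0.821).

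Behind these receptors, of 23 heterotrimeric G protein genes tested, 3 were higher and 7 lower in Fraction 7 (median -0.10, against 7.37% and 13.9% of all genes). Rgs proteins shut off G protein signals. Those that fell were Rgs13, Rgs10 from 14.1 and 11.9 to 3.55, 6.82 and 8.95 FPKM (log2 change -0.98 ± 0.25 SE, adjusted p = 0.0134), Rgs2 from 38.9 and 37.8 to 7.02, 10.7 and 6.52 FPKM (log2 change -2.15 ± 0.14 SE, adjusted p = 3.58e-07) and Rgs18 from 5.19 and 5.38 to 1.81, 0.975 and 0.909 FPKM (-1.52). Gna13, which carries the S1pr2 signal, changed little beside its receptor, from 36.7 and 35.8 to 31.3, 27.0 and 23.0 FPKM (log2 change -0.42 ± 0.10 SE, adjusted p = 0.00668). Grk5, a kinase that desensitises receptors, was at 2.45 and 2.58 FPKM in Fraction 6 and 6.35, 5.16 and 4.93 in Fraction 7 (0.88). Among the G protein genes, the higher calls numbered 1 with Fraction 6 library 1 left out and 1 with Fraction 7 library 3 left out and the lower calls numbered 3 with Fraction 6 library 1 left out. The call for Gna13 was lost without Fraction 6 library 1 (adjusted p = 0.0541). The call for Rgs10 was lost without Fraction 6 library 1 (adjusted p = 0.107).

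Adhesion molecules were split as well: of 23 tested, 6 were higher and 7 lower in Fraction 7 (7.37% and 13.9% of all genes, list median 0.10). With quantile normalization 10 were higher and 7 lower, where 1205 of all 11266 genes were higher and 1470 lower. Itga4, the alpha chain of VLA-4, was at 22.8 and 25.4 FPKM in Fraction 6 and 105, 71.9 and 74.2 in Fraction 7 (log2 change 1.74 ± 0.13 SE, adjusted p = 1.49e-06), and Itgam, or CD11b, the alpha chain of Mac-1, at 0.649 and 1.53 FPKM in Fraction 6 and 12.8, 8.22 and 12.5 in Fraction 7 (log2 change 2.55 ± 0.21 SE, adjusted p = 1.92e-06). Selplg, the ligand of P-selectin, stood at 11.8 and 11 FPKM in Fraction 6 and 34.4, 23.0 and 27.2 in Fraction 7 (1.22). Icam1, which holds B cells to T cells through LFA-1, was at 52.4 and 49.6 FPKM in Fraction 6 and 30.7, 35.7 and 30.3 in Fraction 7 (log2 change -0.65 ± 0.09 SE, adjusted p = 0.000112), and Itgb3 at 4.22 and 3.39 FPKM in Fraction 6 and 1.14, 1.55 and 0.895 in Fraction 7 (-1.13). Of 11 ephrin, plexin and semaphorin genes tested, 4 were higher and 4 lower in Fraction 7. Sema4d, which acts through plexins, went from 195 and 194 to 119, 126 and 95.9 FPKM (-0.78), Sema7a from 99.4 and 96.3 to 59.4, 65.6 and 62.6 (-0.64), and the neuropilin Nrp2 from 1.15 and 0.943 to 4.34, 2.99 and 4.25 (log2 change 1.24 ± 0.14 SE, adjusted p = 3.87e-05). Efna1, the other ephrin tested, was at 0.247 and 1.04 FPKM in Fraction 6 and 1.75, 1.33 and 0.931 in Fraction 7 and was not called (adjusted p = 0.142). Among the ephrin and plexin genes, the higher calls numbered 2 with Fraction 6 library 1 left out and 2 with Fraction 6 library 2 left out.

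The cytoskeleton and membrane scaffold group held S100a6 and Ahnak, the largest rises named here. Of 36 Ahnak, annexin, S100 and cytoskeletal genes tested, 17 were higher and 2 lower in Fraction 7 (7.37% and 13.9% of all genes, list median 0.28). Beyond Ahnak, S100a6 and S100a10, the actin-binding protein Tagln2 was at 38.5 and 37.2 FPKM in Fraction 6 and 186, 120.1 and 148 in Fraction 7 (log2 change 1.95 ± 0.17 SE, adjusted p = 3.90e-06), and Capg, which caps actin filaments, at 169 and 195 FPKM in Fraction 6 and 469.9, 392 and 414 in Fraction 7 (log2 change 1.22 ± 0.14 SE, adjusted p = 3.36e-05). Myo1f, a membrane-bound myosin, was at 14.3 and 15.6 FPKM in Fraction 6 and 52.2, 44.5 and 47.5 in Fraction 7 (1.62). Lmna, the A-type lamin of the nuclear envelope, was at 0.287 and 0.132 FPKM in Fraction 6 and 9.73, 2.88 and 7.91 in Fraction 7 (log2 change 2.57 ± 0.32 SE, adjusted p = 6.51e-05). The group was not uniform: Anxa2, the annexin that binds S100a10, was at 34.6 and 43.0 FPKM in Fraction 6 and 34.8, 18.8 and 28.5 in Fraction 7 (log2 change -0.52, adjusted p = 0.0574), and Vim, the intermediate filament protein, at 230.3 and 304 FPKM in Fraction 6 and 376, 273 and 327 in Fraction 7 (log2 change 0.29, adjusted p = 0.209). Neither was called. Tagln2 stood at 42.1, 50.8 and 38.8 FPKM in Fraction 5, so unlike Capg, at 47.2, 64.5 and 51.5 there, it did not rise before Fraction 7. Among the scaffold genes, the lower calls numbered 1 with Fraction 6 library 2 left out and 5 with Fraction 7 library 1 left out.

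Inhibitory and Fc receptors moved both ways: of 27 tested, 8 were higher and 9 lower in Fraction 7 (7.37% and 13.9% of all genes). The list median was -0.07, which turns to 0.02 with quantile normalization. Cd72, which dampens antigen receptor signals, went from 194 and 171 to 74.3, 117 and 70.8 FPKM (log2 change -1.09 ± 0.16 SE, adjusted p = 0.000338), and Cd22, which does so too, from 549.7 and 524 to 371, 411 and 348 (log2 change -0.51 ± 0.07 SE, adjusted p = 0.000132). Fcer2a, the low-affinity IgE receptor CD23, was at 536 and 570.1 FPKM in Fraction 6 and 344, 327 and 312 in Fraction 7 (-0.75), Fcrl1 at 127 and 135 FPKM in Fraction 6 and 70.7, 87.0 and 65.2 in Fraction 7 (-0.81) and Clec12a, an inhibitory lectin, at 11.6 and 16.2 FPKM in Fraction 6 and 5.03, 4.8 and 4.32 in Fraction 7 (-1.37). Lilrb4, an inhibitory immunoglobulin-like receptor, was at 2.13 and 2.26 FPKM in Fraction 6 and 10.2, 10.5 and 15.5 in Fraction 7 (log2 change 2.01 ± 0.24 SE, adjusted p = 4.96e-05), and Fcrl5, an Fc receptor-like protein of atypical memory cells, at 8.65 and 9.38 FPKM in Fraction 6 and 22.3, 33.6 and 24.2 in Fraction 7 (1.45). Among the Fc and inhibitory receptors, the higher calls numbered 5 with Fraction 6 library 1 left out.

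In antigen receptor signalling, 21 of 41 genes tested were lower and 6 higher (13.9% and 7.37% of all genes, list median -0.27). The kinase Fyn was at 36.0 and 40.7 FPKM in Fraction 6 and 20.1, 19.6 and 17.3 in Fraction 7 (log2 change -0.98 ± 0.09 SE, adjusted p = 8.38e-06), the PI3K adaptor Pik3ap1, or BCAP, at 128 and 124 FPKM in Fraction 6 and 82.6, 81.3 and 75.0 in Fraction 7 (log2 change -0.65 ± 0.07 SE, adjusted p = 1.65e-05) and the adaptor Grb2 at 233 and 235 FPKM in Fraction 6 and 168, 151 and 143 in Fraction 7 (-0.61). Genes that rose included Pik3r5, a regulatory subunit of PI3K gamma, at 4.62 and 5.87 FPKM in Fraction 6 and 26.8, 18.1 and 21.6 in Fraction 7 (log2 change 1.88 ± 0.16 SE, adjusted p = 2.77e-06) and Malt1, a protease of the NF-kB pathway, at 39.2 and 46.6 FPKM in Fraction 6 and 73.3, 67.7 and 72.9 in Fraction 7 (0.72). Together with Pik3r6, both regulatory subunits of PI3K gamma were higher in Fraction 7. Its catalytic subunit Pik3cg, at 16.5 and 20.5 FPKM in Fraction 6 and 6.86, 7.28 and 5.93 in Fraction 7, was lower (log2 change -1.34 ± 0.18 SE, adjusted p = 0.000149).

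Genes for presenting antigen to T cells moved both ways. Of 26 tested, 6 were higher and 11 lower in Fraction 7 and 9 were not called (median -0.23). Over all genes 7.37% were higher and 13.9% lower. With quantile normalization 6 were higher and 8 lower, where 1205 of all 11266 genes were higher and 1470 lower. Cd83, a surface protein of activated B cells that stabilises MHC class II, was at 308 and 312 FPKM in Fraction 6 and 109, 109.6 and 106 in Fraction 7 (log2 change -1.51 ± 0.09 SE, adjusted p = 1.75e-07). Cd86, the costimulatory ligand of CD28, was at 99.9 and 111 FPKM in Fraction 6 and 48.7, 47.2 and 41.9 in Fraction 7 (log2 change -1.18 ± 0.11 SE, adjusted p = 4.53e-06). Cd80, the other ligand of CD28, rose over the same step, so the pair moved in opposite directions. At their mean levels, Cd86 stayed the more abundant per length in Fraction 7. Ciita, the master activator of MHC class II, was at 199 and 182 FPKM in Fraction 6 and 119.5, 117 and 104 in Fraction 7 (log2 change -0.74 ± 0.07 SE, adjusted p = 6.86e-06) and H2-Oa, an inhibitor of peptide loading, at 275 and 270.5 FPKM in Fraction 6 and 184, 185 and 170.3 in Fraction 7 (-0.60). The class II gene H2-Aa was at 2841 and 2881 FPKM in Fraction 6 and 2989, 2542 and 2346 in Fraction 7 and was not called (adjusted p = 0.362). Cd1d1, which presents lipids, was at 3.33 and 3.25 FPKM in Fraction 6 and 11.1, 10.8 and 10.9 in Fraction 7 (1.47). Among the antigen presentation genes, the higher calls numbered 3 with Fraction 6 library 2 left out.

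Survival genes of the Bcl2 family moved in opposite directions. Of 32 Bcl2 family and death receptor genes tested, 2 were higher and 11 lower in Fraction 7 (7.37% and 13.9% of all genes, list median -0.20). The share of higher genes was thus near that of all genes. Bcl2, which blocks mitochondrial death, was at 8.34 and 8.09 FPKM in Fraction 6 and 21.6, 19.0 and 15.7 in Fraction 7 (log2 change 1.09 ± 0.23 SE, adjusted p = 0.00387). Its relatives of the A1 group fell: Bcl2a1b from 80.9 and 102 to 39.7, 40.5 and 37.7 FPKM (log2 change -1.19 ± 0.11 SE, adjusted p = 5.75e-06), with Bcl2a1a (-1.07) and Bcl2a1d (-1.10). These 3 are near-identical copies that can share reads, so they count as 1 observation. The 32 tested and the 11 lower genes of the list still hold each of the 3 separately. Bcl2l1, which encodes Bcl-xL, was at 8.75 and 9.51 FPKM in Fraction 6 and 3.14, 4.47 and 3.33 in Fraction 7 (log2 change -1.13 ± 0.18 SE, adjusted p = 0.000458). The death-promoting gene Bid, at 67.7 and 77.1 FPKM in Fraction 6 and 40.2, 40.0 and 36.7 in Fraction 7 (log2 change -0.88 ± 0.08 SE, adjusted p = 6.22e-06), and the death receptor gene Fas, at 66.8 and 54.8 FPKM in Fraction 6 and 20.3, 25.7 and 21.7 in Fraction 7 (log2 change -1.39 ± 0.13 SE, adjusted p = 5.86e-06), fell too. In LZ and Fraction 5 Bcl2a1b ranged from 50.7 to 64.6 FPKM, below Fraction 6 and above Fraction 7. Mcl1, another survival gene, was at 230.0 and 222 FPKM in Fraction 6 and 236, 190.0 and 186 in Fraction 7 and was not called (adjusted p = 0.311). Among the Bcl2 family genes, the lower calls numbered 7 with Fraction 6 library 2 left out.

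Receptors for cytokines were higher more often than lower. Of 31 cytokine and TNF family receptors tested, 11 were higher and 4 lower in Fraction 7 (median 0.26). Over all genes 7.37% were higher and 13.9% lower, so the share of lower receptors was near that of all genes. Il21r and Tnfrsf13c fell, as given above. The interleukin 6 receptor chains rose together, Il6ra from 4.29 and 6.27 to 21.4, 17.2 and 17.5 FPKM (log2 change 1.66 ± 0.15 SE, adjusted p = 5.81e-06) and its signalling chain Il6st from 1.55 and 1.42 to 3.14, 3.14 and 3.76 (log2 change 0.80 ± 0.12 SE, adjusted p = 0.000358). Csf2rb, the beta chain shared by the receptors for GM-CSF, interleukin 3 and interleukin 5, was at 1.74 and 1.45 FPKM in Fraction 6 and 7.33, 5.78 and 6.29 in Fraction 7 (log2 change 1.52 ± 0.14 SE, adjusted p = 6.57e-06). Tnfrsf17, or BCMA, a receptor of antibody-secreting cells, was at 0 and 0.190 FPKM in Fraction 6 and 3.02, 2.44 and 4.73 in Fraction 7 (log2 change 1.98 ± 0.23 SE, adjusted p = 4.21e-05). Within the BAFF receptor family, Tnfrsf13c and Tnfrsf17 thus moved in opposite directions. Among the cytokine receptors, the higher calls numbered 6 with Fraction 6 library 1 left out, 6 with Fraction 6 library 2 left out and 7 with Fraction 7 library 1 left out.

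Of 23 Toll-like receptor pathway genes tested, 6 were higher and 3 lower in Fraction 7 (7.37% and 13.9% of all genes). The lower share was thus near that of all genes. The list median was -0.05, which turns to 0.02 with median-ratio scaling. Tlr7, the sensor of single-stranded RNA, was at 5.12 and 5.38 FPKM in Fraction 6 and 20.3, 16.3 and 16.5 in Fraction 7 (log2 change 1.58 ± 0.19 SE, adjusted p = 6.28e-05), while Tlr9, the sensor of CpG DNA, was at 56.6 and 55.4 FPKM in Fraction 6 and 56.9, 52.4 and 48.9 in Fraction 7 and was not called (adjusted p = 0.492). Irak3, which restrains the pathway, was at 7.86 and 7.20 FPKM in Fraction 6 and 22.8, 18 and 15.6 in Fraction 7 (1.20). Cd180, a Toll-like surface receptor of B cells, was at 195 and 215 FPKM in Fraction 6 and 138, 137 and 112 in Fraction 7 (-0.67) and Irf5 at 154 and 149.9 FPKM in Fraction 6 and 117, 109 and 103 in Fraction 7 (-0.47). Among the Toll-like genes, the higher calls numbered 2 with Fraction 6 library 1 left out.

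Genes induced soon after stimulation were mixed. Of 22 immediate early and AP-1 genes tested, 4 were higher and 7 lower in Fraction 7 (7.37% and 13.9% of all genes), with a median of -0.25. Dusp2, a phosphatase of MAP kinases, was at 97.3 and 99.5 FPKM in Fraction 6 and 41.3, 42.5 and 40.1 in Fraction 7 (log2 change -1.23 ± 0.12 SE, adjusted p = 7.26e-06). Egr1, at 18.4 and 18 FPKM in Fraction 6 and 7.89, 7.29 and 10.3 in Fraction 7 (log2 change -1.03 ± 0.12 SE, adjusted p = 4.96e-05), and Egr3, at 18.2 and 21.0 FPKM in Fraction 6 and 7.19, 6.86 and 9.92 in Fraction 7 (-1.21), encode zinc finger factors induced by antigen receptor signals. Gadd45b was at 36.0 and 38.1 FPKM in Fraction 6 and 18.1, 17.9 and 16.2 in Fraction 7 (-1.05). Egr3 was at 10.2, 9.61 and 12.9 FPKM in Fraction 5, so of these 3 gates it was highest in Fraction 6. Fos was at 15.1 and 24.6 FPKM in Fraction 6 and 13.8, 22.5 and 19.7 in Fraction 7 and was not called (adjusted p = 0.893). Among the immediate early genes, the higher calls numbered 1 with Fraction 6 library 1 left out, 1 with Fraction 6 library 2 left out and 2 with Fraction 7 library 3 left out.

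Cell cycle genes fell further from Fraction 6 to Fraction 7. Of 47 DNA replication genes tested, 29 were lower and 0 higher (median -0.56), and of 42 mitosis genes 28 were lower and 0 higher (median -0.59). Over all genes 13.9% were lower and 7.37% higher. Mcm5, a subunit of the replicative helicase, was at 38.5, 51.1 and 43.5 FPKM in Fraction 5, 17.7 and 19.0 in Fraction 6 and 7.48, 11 and 9.36 in Fraction 7 (log2 change -0.93 ± 0.13 SE, adjusted p = 0.000161). Uhrf1, which keeps DNA methylation through replication, was at 14.2 and 15.4 FPKM in Fraction 6 and 5.95, 8.02 and 6.55 in Fraction 7 (log2 change -1.02 ± 0.12 SE, adjusted p = 5.34e-05). Rfc1, the large subunit of the clamp loader, was at 31.2 and 30.3 FPKM in Fraction 6 and 12.0, 13.5 and 10.4 in Fraction 7 (log2 change -1.30 ± 0.09 SE, adjusted p = 7.42e-07). Tacc3, a spindle protein, was at 26.3, 32.4 and 30.7 FPKM in Fraction 5, 10.7 and 12.3 in Fraction 6 and 4.42, 6.26 and 5.38 in Fraction 7 (log2 change -0.98 ± 0.14 SE, adjusted p = 0.000163). Nusap1, which binds spindle microtubules, was at 6.32 and 6.75 FPKM in Fraction 6 and 2.04, 3.79 and 2.09 in Fraction 7 (-1.08). The levels of Nusap1 and Tacc3 in Fraction 7 library 2 were above those of the other two. The mitosis count rests on Fraction 6 library 2. Among the mitosis genes, the lower calls numbered 5 with Fraction 6 library 2 left out. Among the replication genes, the higher calls numbered 1 with Fraction 7 library 1 left out.

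Genes tied to rest did not rise as a group. Of 34 quiescence and antiproliferative genes tested, 5 were higher and 9 lower in Fraction 7 (7.37% and 13.9% of all genes), with a median of 0.01. With quantile normalization 10 were higher and 8 lower, where 1205 of all 11266 genes were higher and 1470 lower. Rb1, which blocks entry into S phase, was at 5.76 and 7.44 FPKM in Fraction 6 and 14.8, 14.1 and 14.3 in Fraction 7 (log2 change 1.03 ± 0.17 SE, adjusted p = 0.000802) and Sesn1, a stress-induced brake on mTORC1, at 27.7 and 26.2 FPKM in Fraction 6 and 39.1, 37.4 and 38.7 in Fraction 7 (log2 change 0.49 ± 0.07 SE, adjusted p = 0.000343). Foxo1, a factor of quiescent and dark zone B cells, went from 32.9 and 29.9 to 17.1, 19.7 and 12.9 FPKM (log2 change -0.90 ± 0.13 SE, adjusted p = 0.000287), and Mxd4, a partner of Max that opposes Myc, from 103 and 85.2 to 47.3, 47.0 and 46.2 (-0.98). Klf2, a factor of lymphocyte quiescence and S1pr1 expression, was at 160.2 and 187 FPKM in Fraction 6 and 287, 204 and 217 in Fraction 7 and was not called (adjusted p = 0.126), after 36.8, 29.0 and 40.0 FPKM in Fraction 5. Among the quiescence genes, the higher calls numbered 2 with Fraction 6 library 1 left out and 3 with Fraction 7 library 1 left out and the lower calls numbered 4 with Fraction 6 library 1 left out.

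Few housekeeping growth genes were called. Of 38 ribosome biogenesis genes 1 was higher and 3 lower, of 58 oxidative phosphorylation genes 1 higher and 4 lower, of 36 cholesterol genes 1 higher and 3 lower, and of 37 proteasome subunits 0 higher and 3 lower. These shares are below those of all genes (7.37% higher, 13.9% lower), and the list medians lay between -0.16 and -0.07. Among the ribosome biogenesis genes, the lower calls numbered 0 with Fraction 6 library 2 left out, 6 with Fraction 7 library 1 left out, 1 with Fraction 7 library 2 left out and 1 with Fraction 7 library 3 left out. Among the oxidative phosphorylation genes, the higher calls numbered 0 with Fraction 6 library 1 left out, 0 with Fraction 6 library 2 left out and 0 with Fraction 7 library 1 left out and the lower calls numbered 1 with Fraction 6 library 2 left out and 2 with Fraction 7 library 3 left out. Among the cholesterol genes, the higher calls numbered 0 with Fraction 6 library 2 left out and the lower calls numbered 1 with Fraction 6 library 1 left out, 5 with Fraction 7 library 1 left out and 1 with Fraction 7 library 2 left out. Among the proteasome genes, the lower calls numbered 0 with Fraction 6 library 2 left out, 5 with Fraction 7 library 1 left out and 1 with Fraction 7 library 2 left out. Among 35 genes associated with mTORC1, 10 were lower and 0 higher (median -0.08). Psat1, a serine synthesis enzyme, was at 19.4 and 17.3 FPKM in Fraction 6 and 5.88, 9.84 and 5.63 in Fraction 7 (log2 change -1.29 ± 0.18 SE, adjusted p = 0.000148), and Odc1, the first enzyme of polyamine synthesis, at 39.9 and 45.1 FPKM in Fraction 6 and 27.3, 25.7 and 28.2 in Fraction 7 (-0.63). Among the mTORC1 genes, the lower calls numbered 2 with Fraction 6 library 2 left out, 5 with Fraction 7 library 2 left out and 6 with Fraction 7 library 3 left out. In glycolysis 3 genes were higher and 4 lower of 21. Among the glycolysis genes, the lower calls numbered 2 with Fraction 6 library 2 left out and 7 with Fraction 7 library 1 left out. The glucose transporter Slc2a1, at 15.5 and 14.9 FPKM in Fraction 6 and 26.4, 21.9 and 21.1 in Fraction 7 (0.57), and Pdk1, which keeps pyruvate out of mitochondria, at 4.71 and 6.32 FPKM in Fraction 6 and 11, 9.09 and 9.46 in Fraction 7 (log2 change 0.74 ± 0.13 SE, adjusted p = 0.000991), rose while the enzyme Pfkp, at 15 and 13.7 FPKM in Fraction 6 and 8.74, 10.3 and 9.15 in Fraction 7 (-0.56), fell.

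Interferon-stimulated genes were called in 1 direction only. Of 35 tested, 8 were higher and 0 lower in Fraction 7 (median 0.34), where 7.37% of all genes were higher. Bst2, or tetherin, was at 11.9 and 12.1 FPKM in Fraction 6 and 34.2, 30.0 and 32.6 in Fraction 7 (log2 change 1.35 ± 0.18 SE, adjusted p = 0.000107), and Ddx58, which encodes the RNA sensor RIG-I, at 10.4 and 10.4 FPKM in Fraction 6 and 21.3, 19.9 and 18.9 in Fraction 7 (log2 change 0.88 ± 0.12 SE, adjusted p = 0.000117). Mx1, an antiviral GTPase, was at 1.37 and 0.873 FPKM in Fraction 6 and 3.93, 2.85 and 3.70 in Fraction 7 (1.09). Irf7, at 13.2 and 6.72 FPKM in Fraction 6 and 11.9, 6.68 and 7.47 in Fraction 7 (log2 change -0.15, adjusted p = 0.722), was not called. Among the interferon-stimulated genes, the higher calls numbered 5 with Fraction 6 library 2 left out, 5 with Fraction 7 library 1 left out and 5 with Fraction 7 library 2 left out.

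Of 8 Gimap GTPases, which support lymphocyte survival, 7 were higher (median 0.44). Gimap7 was at 98.5 and 88.0 FPKM in Fraction 6 and 230.2, 172 and 173 in Fraction 7 (log2 change 1.02 ± 0.16 SE, adjusted p = 0.000433) and Gimap4 at 281 and 322 FPKM in Fraction 6 and 519.7, 441 and 455 in Fraction 7 (log2 change 0.64 ± 0.09 SE, adjusted p = 0.00016). The genes lie in 1 cluster and are related in sequence, so reads can be shared between them. Gimap1, at 215 and 220.1 FPKM in Fraction 6 and 215, 192 and 197 in Fraction 7, was not called (adjusted p = 0.38). Among the Gimap genes, the higher calls numbered 2 with Fraction 6 library 1 left out. Of 36 lysosome and autophagy genes tested, 7 were higher and 4 lower in Fraction 7 (7.37% and 13.9% of all genes). The list median was -0.06, and 0.00 with quantile normalization. Psap, which yields the saposins, was at 268 and 308 FPKM in Fraction 6 and 458, 408 and 429 in Fraction 7 (log2 change 0.59 ± 0.10 SE, adjusted p = 0.000605), and Lamp1, a lysosomal membrane protein, at 56.7 and 63.0 FPKM in Fraction 6 and 46.0, 40.1 and 33.9 in Fraction 7 (log2 change -0.58 ± 0.11 SE, adjusted p = 0.00214). Among the lysosome genes, the higher calls numbered 3 with Fraction 6 library 1 left out, 3 with Fraction 6 library 2 left out and 4 with Fraction 7 library 3 left out and the lower calls numbered 1 with Fraction 6 library 2 left out, 7 with Fraction 7 library 1 left out and 2 with Fraction 7 library 3 left out.

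Genes of antibody-secreting cells were more often higher than lower in Fraction 7, and its libraries were not alike in them. Of 30 plasma cell and secretory genes tested, 13 were higher and 2 lower in Fraction 7 (7.37% and 13.9% of all genes), with a median of 0.37. Igj, the joining chain of secreted IgM and IgA, was at 21.0 and 36.5 FPKM in Fraction 6 and at 46.9, 296 and 292 in Fraction 7 (log2 change 2.49, adjusted p = 0.00656). Sdc1, which encodes the CD138 that the sort excluded, was at 0.0222 and 0.162 FPKM in Fraction 6 and 0.502, 4.44 and 4.51 in Fraction 7 (log2 change 1.71, adjusted p = 0.00839). Libraries 2 and 3 of Fraction 7 stood well above library 1 in both, and library 1 was the closer to Fraction 6. Xbp1, the factor of the secretory response, at 36.0 and 30.1 FPKM in Fraction 6 and 34.0, 84.9 and 81.3 in Fraction 7, and Slpi, a secreted protease inhibitor, at 9.29 and 11.5 FPKM in Fraction 6 and 34.0, 131 and 55.7 in Fraction 7, had the same order, as did Ly6c2. Xbp1 (log2 change 0.89, adjusted p = 0.034) and Slpi (log2 change 2.49, adjusted p = 0.000551) were chosen after their values were seen. Xbp1 in library 1 lay within the range of Fraction 6. The call for Igj was lost without Fraction 6 library 1 (adjusted p = 0.0784). The call for Sdc1 was lost without Fraction 6 library 1 (adjusted p = 0.0656). The call for Xbp1 was lost without Fraction 6 library 1 (adjusted p = 0.0835), Fraction 6 library 2 (adjusted p = 0.216), Fraction 7 library 2 (adjusted p = 0.117) and Fraction 7 library 3 (adjusted p = 0.122). Summed over the 30 listed genes, the level was 1091 and 1162 FPKM in Fraction 6 and 1315, 1881 and 1725 in Fraction 7. Among the plasma cell genes, the higher calls numbered 8 with Fraction 6 library 1 left out.

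Other genes of the same list were raised in all 3 libraries, and some fell or were not called. Fkbp11, a foldase of the secretory pathway, was at 0.948 and 1.52 FPKM in Fraction 6 and 13.7, 8.72 and 11.6 in Fraction 7 (log2 change 2.46 ± 0.21 SE, adjusted p = 2.91e-06), and Pdia4, a disulfide isomerase, at 62.0 and 59.4 FPKM in Fraction 6 and 124, 136 and 117 in Fraction 7 (log2 change 1.04 ± 0.09 SE, adjusted p = 5.35e-06). Tnfrsf17 and Irf4 were raised alike in all 3 as well. Hsp90b1, a chaperone of the endoplasmic reticulum, was at 73.2 and 84.6 FPKM in Fraction 6 and 122, 164 and 148 in Fraction 7 (0.86), and Eaf2, an elongation factor that germinal centre B cells express, at 17.3 and 19.7 FPKM in Fraction 6 and 4.65, 6.50 and 8.85 in Fraction 7 (log2 change -1.38 ± 0.17 SE, adjusted p = 6.92e-05). Derl3, which helps to remove misfolded proteins from the endoplasmic reticulum, went from 24.0 and 22.7 to 8.18, 15.6 and 10.1 FPKM (log2 change -1.03 ± 0.20 SE, adjusted p = 0.00197). Hspa5, at 119 and 118 FPKM in Fraction 6 and 103, 127 and 104 in Fraction 7, Herpud1, at 77.7 and 85.3 FPKM in Fraction 6 and 79.8, 77.8 and 70.9 in Fraction 7, and Ell2, at 15 and 14.3 FPKM in Fraction 6 and 12.0, 12.4 and 10.6 in Fraction 7, were not called (adjusted p = 0.6, 0.377 and 0.111). Prdm1, which encodes Blimp-1, the master factor of plasma cells, was low throughout, at 0.397 and 0.387 FPKM in Fraction 6 and 1.37, 2.00 and 1.97 in Fraction 7 (log2 change 0.99 ± 0.19 SE, adjusted p = 0.00187). When libraries 2 and 3 of Fraction 7 were left out together, 6 of the 30 genes were higher and 2 lower. The log2 change of Igj was then 0.74 (adjusted p = 0.107), that of Sdc1 0.46 (adjusted p = 0.152) and that of Xbp1 0.05, while that of Fkbp11 was 2.73 (adjusted p = 6.22e-05) and that of Tnfrsf17 1.88 (adjusted p = 0.000792). That fit takes the spread of the single remaining library from the rest of the series. The 5 markers kept their calls in it, with log2 changes of 4.5 for Ahnak, 3.79 for Bhlhe41, 2.97 for Zbtb32, 2.78 for Cxcr3 and -2.83 for S1pr2.

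**Figure D4:**
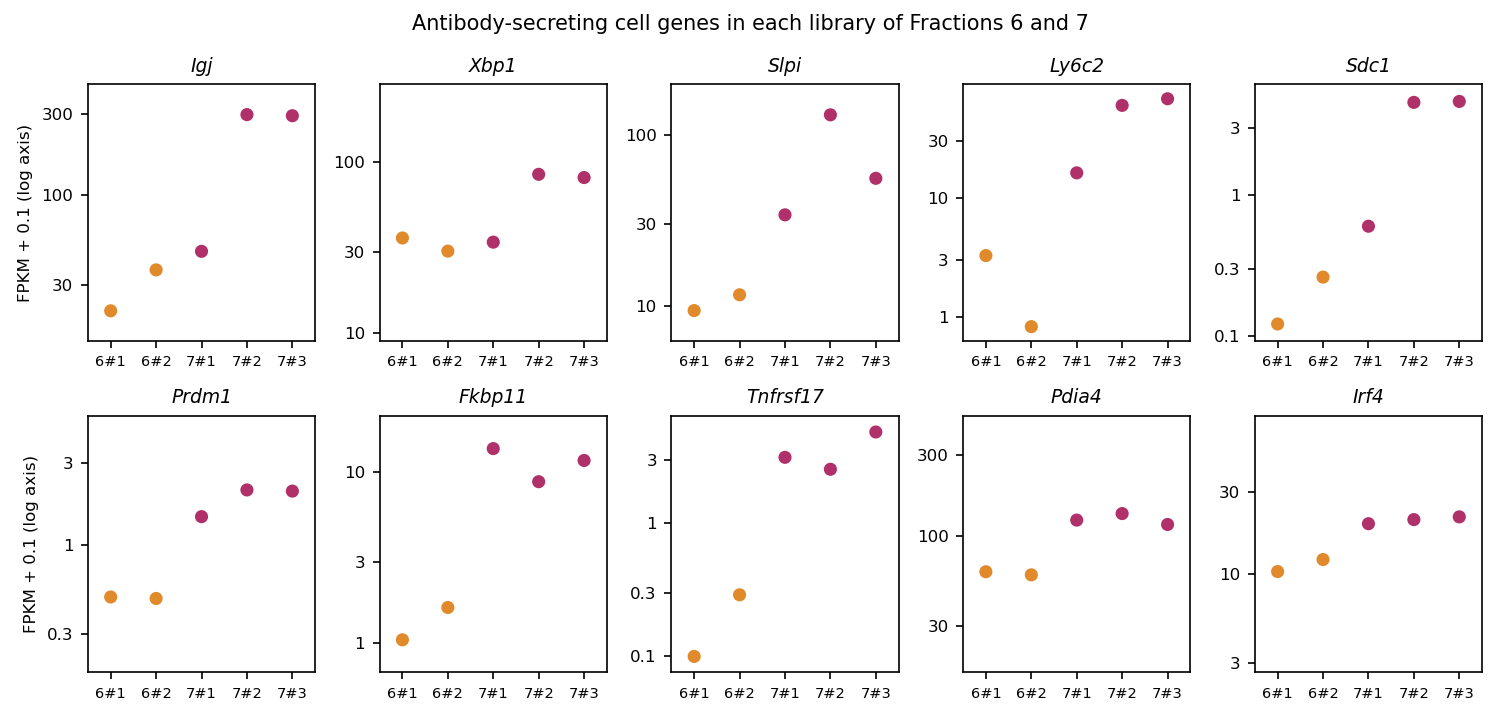
Levels of 10 genes of antibody-secreting cells (Ly6c2 is listed as a myeloid marker) in each library of Fraction 6 (6#1, 6#2) and Fraction 7 (7#1 to 7#3), as FPKM + 0.1 on a log axis. Igj, Xbp1, Slpi, Ly6c2 and Sdc1 are lower in 7#1 than in 7#2 and 7#3, whereas Fkbp11, Tnfrsf17, Pdia4 and Irf4 are raised in all 3.

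Markers of other cells were looked at in the same libraries. The 13 T cell markers summed to 166 to 203 FPKM in Fraction 6 and 121 to 136 in Fraction 7, with 7 of them under 1 FPKM in all 5 libraries and Cd3e at 0 in each. Most of that sum was Cd2, which stood at 74.5 to 142 FPKM in LZ and Fraction 5. The 15 myeloid markers summed to 128 to 139 FPKM in Fraction 6 and 237 to 304 in Fraction 7, where Cst3, at 92.4 and 126 FPKM in Fraction 6 and 193, 148 and 175 in Fraction 7, and Ly6c2 made up most of the rise. Of 9 tested, 3 were higher (Itgam, Ly6c2 and Cst3) and 0 lower in Fraction 7 (7.37% and 13.9% of all genes). Tyrobp, not called, was at 6.09 and 5.58 FPKM in Fraction 6 and 8.06, 11.01 and 13.28 in Fraction 7. Its levels in LZ and Fraction 5 ranged from 0.531 to 1.72 FPKM. Cd14 was at 0 in all 5 libraries of Fractions 6 and 7. Lyz2 was at 5.70 and 1.08 FPKM in Fraction 6 and 1.08, 2.04 and 3.34 in Fraction 7, and Mpo at 4.86 and 0 in Fraction 6 and 0, 0.138 and 0.0803 in Fraction 7. S100a8 was at 4.66 and 0.916 FPKM in Fraction 6 and 0.719, 1.70 and 15.2 in Fraction 7, so library 3 of Fraction 7 carried most of it. The part of these cells in the rises of Itgam and Ly6c2 was not tested. The NK and innate lymphoid markers summed to at most 2.40 FPKM and the stromal and endothelial markers to at most 0.560 FPKM in any of the 5 libraries, the platelet and megakaryocyte markers to 3.66 to 4.88 FPKM in Fraction 6 and 1.83 to 1.99 in Fraction 7, the dendritic cell markers to 17.2 to 21.5 FPKM in Fraction 6 and 17.0 to 23.0 in Fraction 7 and the erythroid markers to 84.1 to 118 FPKM in Fraction 6 and 85.1 to 122 in Fraction 7. Markers listed for B-1 and atypical memory B cells summed to 59.8 to 67.1 FPKM in Fraction 6 and 123 to 132 in Fraction 7. Of 10 tested, 5 were higher and 2 lower in Fraction 7. Spn, or CD43, was at 10.4 and 15.1 FPKM in Fraction 6 and 58.3, 42.7 and 51.9 in Fraction 7 (log2 change 1.93 ± 0.16 SE, adjusted p = 2.81e-06), Itgam, Nrp2 and Fcrl5 rose as given above, and Fgl2 rose as well (1.32). Rasgef1b fell, from 9.60 and 10.7 to 5.49, 6.36 and 5.30 FPKM (log2 change -0.73 ± 0.20 SE, adjusted p = 0.0177), as did Plscr1, from 12.5 and 17.5 to 10.3, 10.1 and 9.28 FPKM (log2 change -0.54 ± 0.15 SE, adjusted p = 0.021). The call for Rasgef1b was lost without Fraction 6 library 1 (adjusted p = 0.062), Fraction 6 library 2 (adjusted p = 0.133) and Fraction 7 library 3 (adjusted p = 0.0554). The call for Plscr1 was lost without Fraction 6 library 2 (adjusted p = 0.299) and Fraction 7 library 3 (adjusted p = 0.0654). Cd5 and Tbx21 were not called (adjusted p = 0.749 and 0.0663). Naive and marginal zone markers summed to 715 to 753 FPKM in Fraction 6 and 618 to 710.0 in Fraction 7. Fcer2a, which fell as given above, was the most abundant of them in each library. Of 9 tested, 5 were nonetheless higher and 3 lower in Fraction 7, with a median of 0.59 (7.37% and 13.9% of all genes). Cd9 was at 1.47 and 0.702 FPKM in Fraction 6 and 5.30, 3.72 and 6.53 in Fraction 7 (1.57).

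The step from Fraction 6 to Fraction 7 was set against the step before it, from Fraction 5 to Fraction 6, by a test of the difference between the steps. The steps share Fraction 6, so a high or low value there moves both. Earlier and later refer to the order assumed from the gate labels, since all gates were sorted on the same day. 416 genes were called (3.69%), 171 with the later step the more positive and 245 with it the more negative. Without Fraction 6 library 1 the count was 56 and without library 2 it was 92, so most of these calls need both libraries. The log2 change of Ahnak was 1.16 in the earlier step and 4.07 in the later (difference 2.91 ± 0.38 SE, adjusted p = 0.00114). That of Pik3r6 was 0.32 and then 2.98 (difference 2.65 ± 0.24 SE, adjusted p = 8.83e-05). For Tagln2 the changes were -0.20 and 1.95 (difference 2.15 ± 0.31 SE, adjusted p = 0.00194). These genes rose mainly in the later step, as Efnb1, by the gate, fell mainly there (-1.08, then -3.29). Bhlhe41 rose in both (2.32, then 3.65) and its difference was not called (difference 1.33 ± 0.51 SE, adjusted p = 0.202). Its Fraction 5 levels, given above, lay under the 1 added to each FPKM. The log2 change therefore understates its earlier step, and the sizes of its steps cannot be ranked as fold changes. S1pr1 rose more in the earlier step (2.90, then 1.47, difference -1.43 ± 0.35 SE, adjusted p = 0.0362).

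A further set of genes was lower in Fraction 7 than in Fraction 6 but not lower in Fraction 6 than in Fraction 5. The log2 change of Cd83 was 0.02 and then -1.51 (difference -1.53 ± 0.16 SE, adjusted p = 0.000265), that of Bcl2a1b 0.77 and then -1.19 (difference -1.95 ± 0.20 SE, adjusted p = 0.00018), and that of Bhlhe40 2.01 and then -0.95 (difference -2.96 ± 0.30 SE, adjusted p = 0.00018). Ciita was at 176, 168 and 170.5 FPKM in Fraction 5, 199 and 182 in Fraction 6 and 119.5, 117 and 104 in Fraction 7 (difference -0.90 ± 0.13 SE, adjusted p = 0.00179). Of all genes tested, 3.69% were called for the difference, 245 with the later step the more negative and 171 with it the more positive. List counts for the difference come from the fit to all libraries, and most calls were lost without a library of Fraction 6. In antigen presentation 7 of 26 genes tested were called, and in antigen receptor signalling 5 of 41. Of the Fc and inhibitory receptors 5 of 27 were called, and of the Bcl2 family list 5 of 32. In all of these the later step was the more negative. In mitosis it was the reverse: 21 of 42 genes were called and in all of them the earlier step was the more negative, as in Incenp, a subunit of the chromosomal passenger complex (-1.55, then -0.42, difference 1.13 ± 0.17 SE, adjusted p = 0.00216). The list median was -1.82 in the earlier step and -0.59 in the later. In DNA replication 8 of 47 were called, all with the later step the more positive. In germinal centre identity the medians of the steps were -0.92 and -0.90, and in memory surface genes 0.55 and 0.52. Near-equal medians did not mean that each member had like steps. In germinal centre identity 7 of 29 were called, 1 with the later step the more positive and 6 with it the more negative. In memory surface genes 9 of 32 were called, 3 and 6 in the same order. Without Fraction 6 library 1 the difference was no longer called for Ahnak (adjusted p = 0.0505), S1pr1 (adjusted p = 0.109), Ciita (adjusted p = 0.0588) and Incenp (adjusted p = 0.0701). Without Fraction 6 library 2 the difference was no longer called for S1pr1 (adjusted p = 0.407). Without Fraction 7 library 2 it was not called for S1pr1 (adjusted p = 0.0617). Without Fraction 7 library 3 it was not called for S1pr1 (adjusted p = 0.0673).

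**Figure D5:**
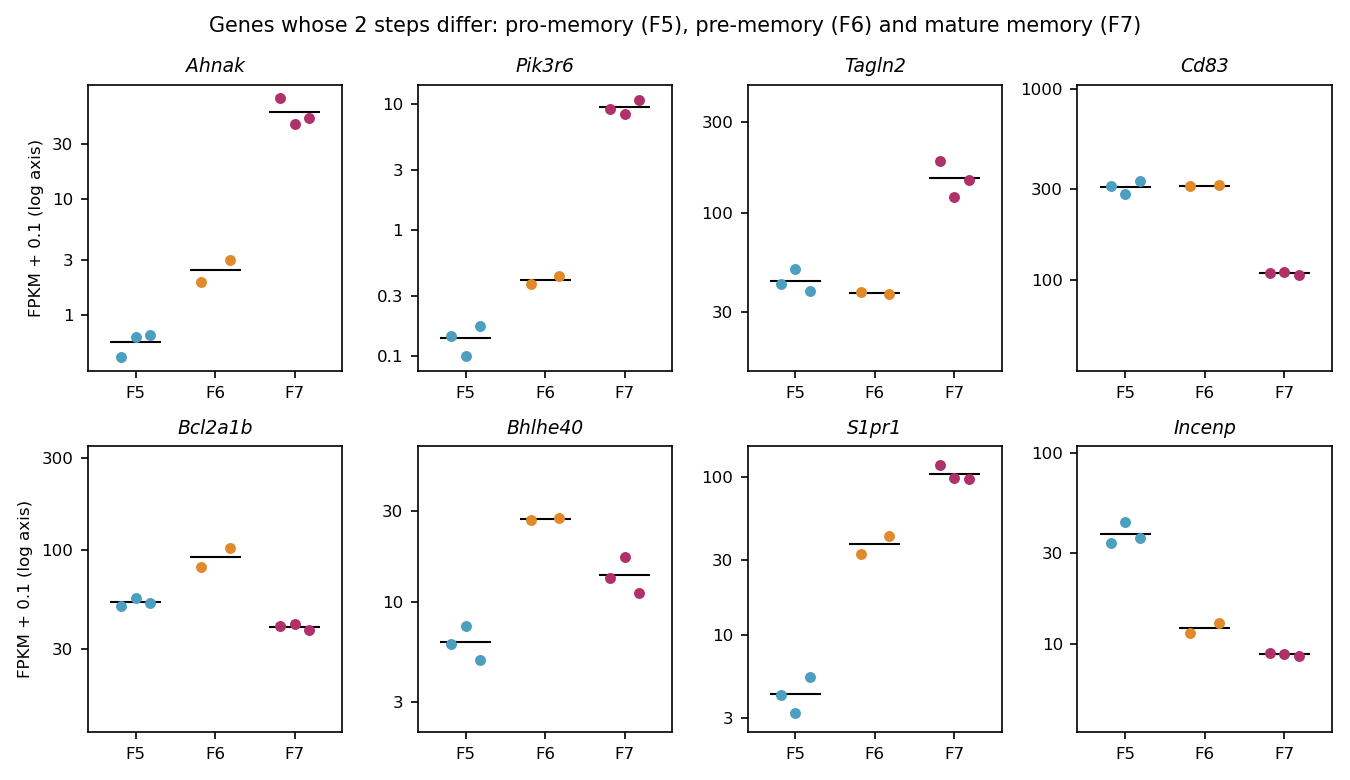
Levels of 8 genes called for the difference between the steps, in each library of Fractions 5, 6 and 7, as FPKM + 0.1 on a log axis with a line at the group mean. Ahnak, Pik3r6 and Tagln2 rise mainly into F7, Bcl2a1b and Bhlhe40 are highest in F6, Cd83 falls only into F7, and S1pr1 and Incenp change more into F6.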

How the data were processed

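RNA of sorted cells was sequenced in 16 libraries, of which the 2 of Fraction 6 and the 3 of Fraction 7 were compared. The deposited values are FPKM, which the authors obtained with TopHat2 2.0.8 and Cufflinks 2.1.1 on build mm9, per the submitters' processing notes. Total RNA went into a NEBNext Ultra kit, per the labels' protocols. This kit does not mark strand, so reads of a gene and an antisense partner cannot be told apart. Read counts and filters are not given in the sources used here, so no counting interval is given. Rows that share a gene name or come from close paralogs may share reads. 1 unnamed row was left out, which leaves 23234 genes.

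The filter kept 11266 genes, those that reached 1 FPKM in 2 or more of the 16 libraries. log2(FPKM + 1) was fitted with limma 3.58.1 in R 4.3.3, with the 6 groups of the series sharing 1 estimate of the spread and no covariates. The difference between steps was a contrast in the same fit. The scripts were tested on simulated data. Adjusted p is by Benjamini-Hochberg, and calls need adjusted p under 0.05. A 2-fold change is on the log2(FPKM + 1) scale.

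The members and lists were chosen with earlier results of these data known. Genes named are those of the gates, the 5 markers, the 15 largest rises and 15 largest falls that were called in all 5 fits leaving out 1 library, averaged 5 FPKM or more where they were higher, did not overlap between the gates and were no immunoglobulin genes, up to 6 members of each list by smallest adjusted p with their pairs or opposites, and markers of other cells. Pik3cg, Derl3 and the genes named as not called were chosen after their values were seen, as were Gcet2, Ccnd3, Xbp1 and Slpi. A few genes that the rule takes are not reported here. Alternatives were 3 scalings, a pseudocount of 0.1, no filter, a filter of 5 FPKM, a fit to the groups compared alone, a replicate block, array weights and leaving out libraries. Promoter windows are from RefSeq on GRCm38.p6 and were matched by symbol. The expression files use mm9, so no coordinates are given for expression. Figures were drawn with matplotlib 3.10.9.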

Additional observations from a re-analysis of the deposited data

How the results depend on the processing

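Of 188 named genes that were called, 126 kept their direction and their call under all 15 alternatives, 56 lost the call under at least 1 of them, and 6 kept it under the 14 they entered, since the filter of 5 FPKM removes them. The 5 markers kept theirs under all 15. Left-out libraries gave 1334 to 2491 calls in all, 475 to 723 higher, 839 to 1776 lower, 412 to 485 over 2-fold and 56 to 529 for the difference between the steps. The fit to Fractions 6 and 7 alone called 1248 genes, 495 higher and 753 lower, and its 3-gate form called 111 for the difference. There were 1589 calls, 852 of them lower, without libraries 2 and 3 of Fraction 7. Genes past 2-fold numbered 660 with a pseudocount of 0.1. The difference between the steps was called for 644 genes with quantile normalization and 660 with array weights. The causes were not tested, except that fits with fewer libraries also have fewer degrees of freedom. Cd38, never called, had a log2 change of 0.0943 with quantile normalization, 0.0568 with median-ratio scaling, 0.0566 with a common total, 0.0082 with the replicate block, 0.0219 without libraries 2 and 3 of Fraction 7 and -0.0366 to 0.0187 with each library left out in turn.

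The gates share 2 replicate numbers. Deviations of same-numbered libraries from their group means had correlations of -0.0852 and -0.136. With 2 libraries in Fraction 6 their deviations mirror each other, so these values cannot tell whether the libraries are paired. The numbers were not taken to pair the libraries. The fit with the replicate block called 2471 genes, 864 higher and 1607 lower, with 442 over 2-fold and 508 for the difference between the steps. Depth is unknown, and differences of genes near 1 FPKM are the least certain.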

Other observations

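Of 5 T cell markers tested in these B cell gates, 3 were lower in Fraction 7 and 0 higher (13.9% and 7.37% of all genes). Lck, a Src family kinase, was at 19.2 and 23.8 FPKM in Fraction 6 and 6.20, 6.52 and 7.86 in Fraction 7 (log2 change -1.51 ± 0.16 SE, adjusted p = 2.20e-05), and at 23.7 to 35.2 FPKM in LZ and Fraction 5. Lat, the adaptor of T cell receptor signalling, was at 3.13 and 2.53 FPKM in Fraction 6 and 0.595, 0.0626 and 1.09 in Fraction 7 (log2 change -1.32 ± 0.27 SE, adjusted p = 0.0033), and at 5.73 to 7.80 FPKM in LZ and Fraction 5. Fraction 6 lay below those gates in Lat and met the lowest of their libraries in Lck, while Cd3e was at 0 in all 5 libraries of Fractions 6 and 7. Cd2, the other one called, was at 142 and 174 FPKM in Fraction 6 and 126, 126 and 106 in Fraction 7 (log2 change -0.40 ± 0.12 SE, adjusted p = 0.0268). Cd8b1, at 0.995 and 1.04 FPKM in Fraction 6 and 1.22, 1.61 and 1.55 in Fraction 7, and Thy1, at 0.454 and 0.642 FPKM in Fraction 6 and 0.489, 0.674 and 1.27 in Fraction 7, were not called (adjusted p = 0.148 and 0.645). Cd28, too low to be tested, was at 0.0154 and 0.0141 FPKM in Fraction 6 and 0.232, 0.738 and 1.25 in Fraction 7. Ly6d, a Ly6 protein of the B lineage, moved the other way, from 175, 226 and 147 FPKM in Fraction 5 to 351 and 386 in Fraction 6 and 841, 733 and 777 in Fraction 7 (log2 change 1.09 ± 0.15 SE, adjusted p = 0.000165). The call for Cd2 was lost without Fraction 6 library 2 (adjusted p = 0.306) and Fraction 7 library 3 (adjusted p = 0.0959).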
